A study of Homo sapiens with 8 samples.

Results

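P2-treated HCT116 cells with and without p53 were compared on 4 Illumina expression arrays, 2 from p53+/+ and 2 from p53-/- cells. HCT116 is an established human colon cancer line, and the p53-/- cells are its derivative without a working p53 gene. The comparison covered every probe that at least 2 of these 4 arrays detected at p under 0.05, where the detection p sets a probe against the negative controls of its array. This rule kept 14024 of 24526 probes, for 10574 named genes, with 1297 of the kept probes unnamed, and the other 10502 probes were not tested. The treated cells of both genotypes had received the small molecule P2 at 25 µM, and 2 untreated arrays per genotype complete the series of 8 arrays. The labels name no solvent control, treatment time or clone, and nothing in them shows that both arrays of a group came from separate cultures, so each p-value measures a spread that may be technical. The extraction notes speak of frozen tissue although the labels give a cell line, which was not resolved. The deleted gene itself is not analysed here, so the genotype labels were not checked against it, and no probe of a known p53 target was called between the labelled genotypes in treated or untreated cells.

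The transcription factor p53 is held at a low level in unstressed cells by the ubiquitin ligase MDM2, and it accumulates when DNA is damaged or the ligase is blocked. It then binds response elements near its target genes and raises their transcription. Its best known targets stop the cell cycle, trigger apoptosis, repair DNA or feed back on p53 itself, and in HCT116 cells the loss of p53 is widely used to test whether a drug response needs it. A comparison of treated p53+/+ with treated p53-/- cells asks how far the transcript levels reached under P2 differ with the p53 status.

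No probe passed the test between the treated genotypes, and the best known p53 target genes differed little between them. CDKN1A, which encodes the cyclin-dependent kinase inhibitor p21, differed by 0.20 ± 0.11 log2 (SE, 2 arrays per group). GDF15, a secreted stress cytokine, differed by -0.04 ± 0.13 log2. MDM2, the feedback ligase, was 0.47 ± 0.12 log2 higher in p53+/+ cells, which missed the threshold as well. In bulk RNA a lower share of cells expressing a gene and less RNA per cell cannot be told apart. In limma's moderated test with Benjamini-Hochberg adjustment over all 14024 probes, 0 probes (0%) had an adjusted p under 0.05 and the smallest adjusted p was 0.169. The same test called 1998 probes (14.2%) at an unadjusted p under 0.05, 1035 of them higher in p53+/+ cells (7.38%) and 963 lower (6.87%).

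The treated arrays were alike in depth of signal. Between 13423 and 13998 probes were detected on each of the 4, with median intensities of 52.2 to 69.1, and 12848 of the tested probes were detected on all 4. The SD across probes of the log2 difference between replicates was 0.213 in p53-/- and 0.207 in p53+/+ cells, against 0.241 to 0.283 for pairs of arrays of different genotype. Correlations across the tested probes, which are not independent replicates, were r = 0.995 within both genotypes and 0.991 to 0.993 between them. On the first principal component of the 4 arrays, with 51.9% of the variance, the p53-/- arrays stood at -16.1 and -8.83 and the p53+/+ arrays at 11.1 and 13.9. Of the colon epithelium markers, 8 of 12 were detected on all 4 treated arrays, EPCAM, CDH1 and CDX2 among them, while VIL1, KRT20 and LGALS4 were detected on none. Of the fibroblast markers 1 of 7 was detected on all 4 arrays, of the leukocyte markers 2 of 6 on the array, of the endothelial markers 1 of 6 of the erythroid markers 0 of 3 and of the neural markers 3 of 4. No tested probe of these lists had an unadjusted p under 0.05 between the treated genotypes.

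The p53 target genes were examined in the order of their roles. Of 130 listed targets, 103 genes with 129 probes were tested. None of these probes passed, and 10 of 129 (7.75%) were higher and 8 (6.20%) lower in p53+/+ cells at an unadjusted p under 0.05, close to the 7.38% and 6.87% of all tested probes. The lower count was 2 when p53+/+ P2 replicate 1 was dropped, 3 when p53-/- P2 replicate 2 was and 5 when p53-/- P2 replicate 1 was. Of the 129 probes, 119 were detected on all 4 treated arrays. Their median difference was -0.03 log2, against -0.00 over all tested probes. In 30 of the 129 (23.3%) both p53+/+ arrays lay above both p53-/- arrays, and in 39 (30.2%) both lay below, against 23.7% and 24.7% of all tested probes. The 95% interval of the difference lay within 1 log2 unit of 0, a 2-fold difference, for 126 of the 129 probes, and within 1.5-fold for 104 (80.6%). On the untreated arrays none of the 129 was called, their median difference was -0.05 log2, and 16 were higher and 11 lower in p53+/+ cells at an unadjusted p under 0.05, against 1396 (9.95%) and 1408 of all tested probes.

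**Figure D1:**
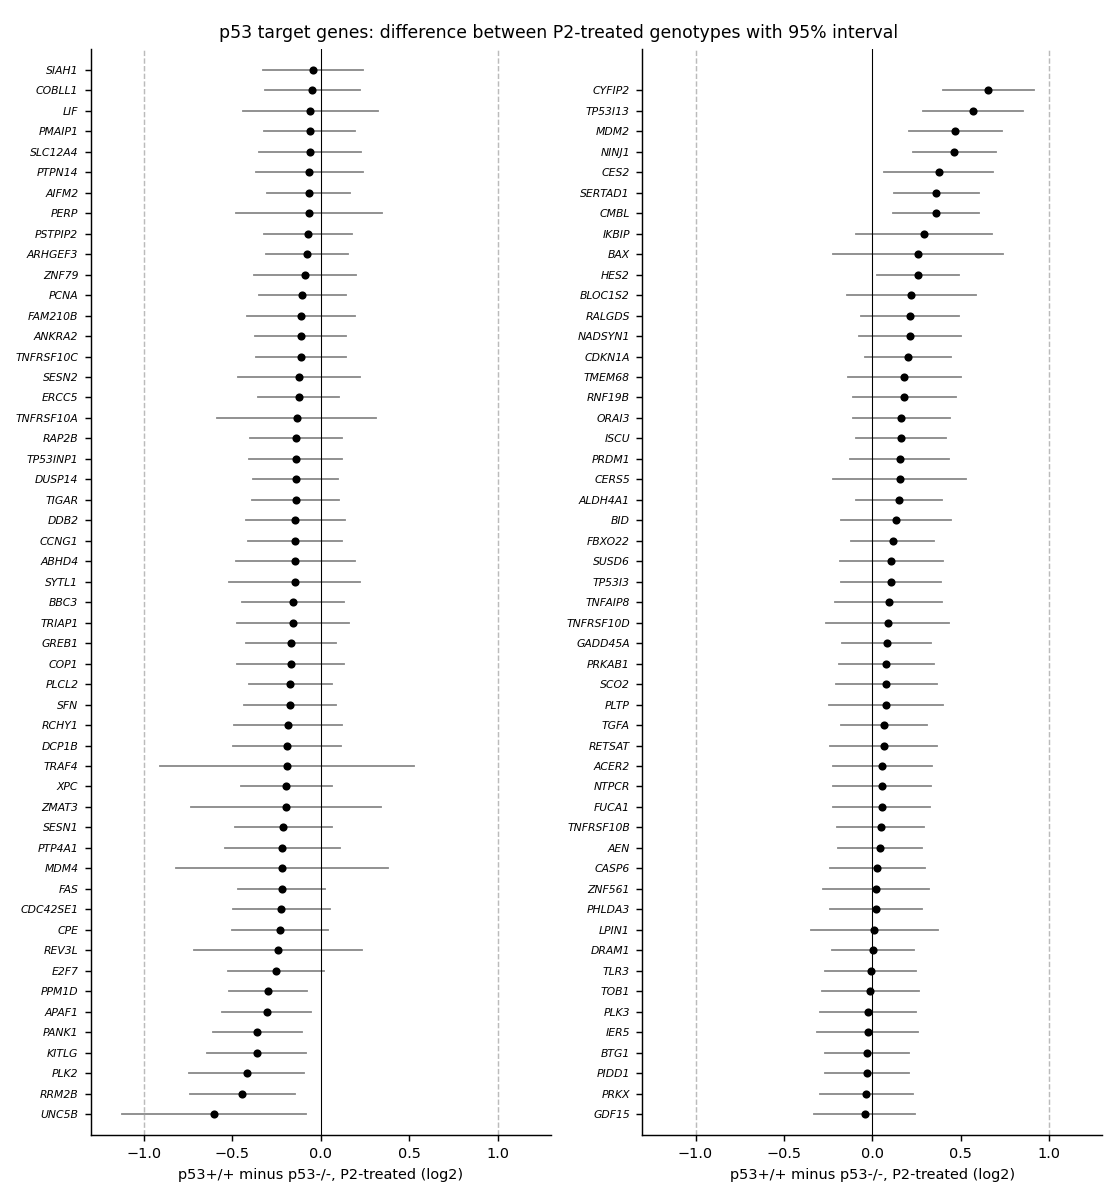
Difference between p53+/+ and p53-/- cells under P2, in log2 units, for the brightest tested probe of each of 103 p53 target genes, ordered by size. Points are the fitted differences of 2 arrays per group and bars their 95% intervals. Dashed lines mark a 2-fold difference, and only the interval of UNC5B crosses one.

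The 13 probes of the feedback genes had a median difference of -0.15 log2 under P2. At an unadjusted p under 0.05, 1 (7.69%) was higher and 1 (7.69%) lower, against 7.38% and 6.87% of all tested probes. Both p53+/+ arrays lay above both p53-/- arrays for 1 probe, that of MDM2, and below them for 5. Among all tested probes these shares were 23.7% and 24.7%. MDM2 was at 4.81 and 4.89 log2 intensity on the p53-/- arrays and at 5.33 and 5.31 on the p53+/+ arrays. It was detected on all 4, but the p53-/- values lay close to the lowest detected level, which was 4.73 to 4.81 on the treated arrays, and on the untreated arrays it was detected on 3 of 4. The groups did not overlap, the difference had a 95% interval of 0.21 to 0.73 log2, and limma gave an unadjusted p of 0.00287 and an adjusted p of 0.170. On the untreated arrays the MDM2 difference was -0.06 log2, and the difference of the 2 differences, 0.53 log2, had an adjusted p of 0.172. PPM1D, the phosphatase that reverses p53 activation, lay the other way, at 8.82 and 8.79 on the p53-/- arrays and 8.49 and 8.51 on the p53+/+ arrays. Its difference was -0.30 ± 0.10 log2 (limma adjusted p = 0.237). CCNG1, the cyclin G1 gene, and ZMAT3, an RNA-binding zinc finger gene, differed by -0.15 and -0.20 log2. ZMAT3 was at 9.17 and 8.80 on the p53-/- and 9.11 and 8.47 on the p53+/+ arrays, so that its replicates were farther apart than its group means. On the untreated arrays ZMAT3 was at 6.97 and 7.47 in p53-/- and 8.45 and 8.65 in p53+/+ cells. That untreated difference was 1.33 log2 (limma adjusted p = 0.0557).

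Among the cell cycle arrest genes, CDKN1A was at 11.86 and 11.73 log2 intensity on the treated p53-/- arrays and at 11.98 and 12.01 on the treated p53+/+ arrays. The groups did not overlap, but the 95% interval of the difference ran from -0.04 to 0.44 log2 and limma's adjusted p was 0.426. The same CDKN1A probe stood at 10.06 and 10.07 on the untreated p53-/- arrays and at 9.91 and 10.06 on the untreated p53+/+ arrays. All treated arrays, of both genotypes, were thus above all untreated ones. A second, dimmer CDKN1A probe differed by 0.18 ± 0.17 log2, with overlapping arrays. GADD45A, which acts in growth arrest after DNA damage, differed by 0.08 log2, SFN, which encodes 14-3-3 sigma, by -0.17 log2 and GDF15 by -0.04 log2. The 4 treated GDF15 values, 12.01 and 11.79 in p53-/- and 11.74 and 11.97 in p53+/+ cells, overlapped fully. PLK2, a polo-like kinase gene, differed by -0.42 ± 0.14 log2 (limma adjusted p = 0.249). Its treated p53+/+ values, 4.75 and 4.85, lay close to the lowest detected levels of those arrays, 4.74 and 4.81.

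**Figure D2:**
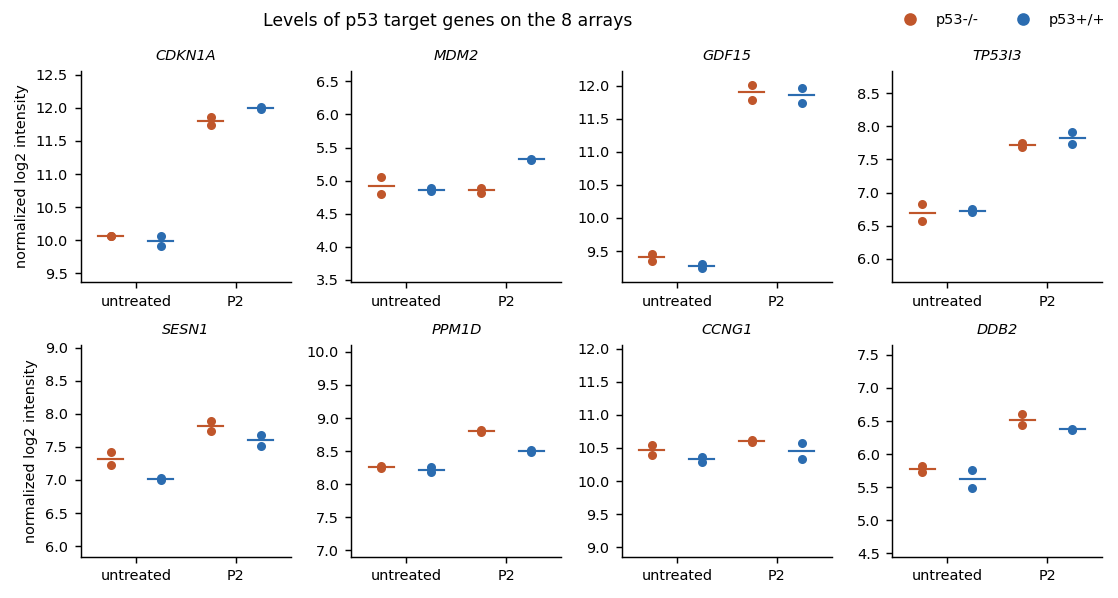
Normalized log2 intensity of 8 p53 target genes on each of the 8 arrays, brightest probe per gene, with p53-/- arrays in orange and p53+/+ arrays in blue. Points are arrays, short lines are group means. Every panel spans the same number of log2 units, and the treated group means differ most for MDM2, by 0.47 log2.

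The apoptosis targets showed no common direction under P2. Of their 32 probes, 1 was higher and 2 were lower at an unadjusted p under 0.05. PMAIP1, the gene of NOXA, differed by -0.06 log2 in treated cells and the brightest BAX probe by 0.26 ± 0.21 log2. The SE of this BAX probe also drew on its untreated p53-/- values, 7.75 and 8.48. Its treated values were 9.08 and 8.98 in p53-/- and 9.41 and 9.16 in p53+/+ cells. BBC3, which encodes the BH3-only protein PUMA, and FAS, a death receptor gene, were each detected on both p53-/- arrays but on only 1 of the 2 p53+/+ arrays, so that their levels were at background there and no difference is given. For TNFRSF10B, the gene of the TRAIL receptor DR5, the brightest probe differed by 0.05 log2. One of its dimmer probes was at 6.26 and 6.03 in p53-/- and 6.57 and 6.97 in p53+/+ cells, a difference of 0.62 ± 0.16 log2 (limma adjusted p = 0.177), whereas on the untreated arrays that probe differed by -0.60 log2. UNC5B, a netrin receptor gene, had the largest negative difference among the p53 targets, -0.60 ± 0.23 log2. It rested mostly on p53-/- P2 replicate 1, since the p53-/- values were 6.24 and 5.40 and the p53+/+ values 5.23 and 5.20. APAF1, the apoptosome scaffold gene, differed by -0.31 ± 0.11 log2 on its brighter probe, and its dimmer one was detected on 1 array of each genotype.

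None of the 8 probes of the DNA repair targets passed. At an unadjusted p under 0.05, 1 (12.5%) was lower, against 6.87% of all tested probes. Their median difference was -0.14 log2 in treated and -0.14 log2 in untreated cells. RRM2B, the p53-inducible ribonucleotide reductase subunit gene, was at 7.44 and 7.69 in p53-/- and 7.04 and 7.21 in p53+/+ cells, a difference of -0.44 ± 0.13 log2 (limma adjusted p = 0.210). DDB2 and XPC, both of nucleotide excision repair, differed by -0.14 and -0.20 log2, and their intervals included 0. Among the metabolic and redox targets, SESN1, which restrains mTOR signalling, TIGAR, which lowers glycolytic flux, and PANK1, of coenzyme A synthesis, differed by -0.21, -0.14 and -0.36 log2. CMBL, a hydrolase gene, and FUCA1, a lysosomal fucosidase gene, differed by 0.36 and 0.05 log2. The 2 probes of CES2, a carboxylesterase gene, pointed in opposite directions, with differences of 0.37 and -0.41 log2.

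The remaining targets included the largest positive difference, on a KITLG probe. CYFIP2, a member of the WAVE actin regulatory complex, was at 8.25 and 8.29 in p53-/- and 9.00 and 8.85 in p53+/+ cells. The difference of 0.66 ± 0.11 log2 had a limma adjusted p of 0.169, but the other CYFIP2 probe, at a like intensity, differed by -0.21 log2. TP53I13 differed by 0.57 ± 0.13 log2, with 0.41 log2 on the untreated arrays, and NINJ1, a membrane rupture and adhesion gene, by 0.46 ± 0.10 log2, with 0.22 log2 on the untreated arrays. The 2 probes of KITLG, the KIT ligand gene, also disagreed, the brighter one differing by -0.36 log2 and the dimmer one by 0.74 log2. Of the 129 target probes, 4 (3.10%) exceeded a 1.5-fold difference, against 1.16% of all tested probes, and these were probes of CYFIP2, KITLG, TNFRSF10B and UNC5B. For CYFIP2 and KITLG another probe differed by -0.21 and -0.36 log2. The other TNFRSF10B probes differed by 0.05 and 0.28 log2, and UNC5B had a single tested probe.

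Beyond the p53 targets, differences between the treated genotypes were small. Only 2 of 14024 probes exceeded a 2-fold difference and 163 exceeded 1.5-fold, 99 of them higher and 64 lower in p53+/+ cells. The 95% interval lay within 2-fold for 13740 probes (98.0%), with a median half-width of 0.29 log2. The 2 probes past 2-fold belonged to TRIM16L and MTF1. TRIM16L was at 6.80 and 7.05 in p53-/- and 7.35 and 8.53 in p53+/+ cells, and MTF1, the metal-responsive transcription factor gene, at 7.28 and 6.61 against 6.09 and 5.79. Both had replicates that were far apart, with limma adjusted p of 0.238 and 0.196. In both genes the untreated difference had the other sign, -1.17 log2 for TRIM16L and 0.90 log2 for MTF1.

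Since no probe passed, the genes described next were chosen after their values were seen, as the 15 with the smallest p in each direction whose arrays did not overlap between the genotypes. All 30 had the same limma adjusted p of 0.169. PRRX2, a homeobox gene, had the smallest p of all, 1.64e-05, with 7.54 and 7.63 log2 intensity in p53-/- and 8.44 and 8.41 in p53+/+ cells, a difference of 0.84 ± 0.10 log2. PRSS8, which encodes the epithelial serine protease prostasin, was at 7.33 and 7.34 in p53-/- and 8.20 and 8.36 in p53+/+ cells, a difference of 0.94 ± 0.12 log2. In both genes the gap between the genotypes was several times the gap between replicates, which a choice by small p and separate arrays favours. ARHGAP33 (0.92 log2), PLD3 (0.79 log2) and SCAP (0.75 log2), the last of these the sterol sensor that escorts SREBP, followed. ZYX, the focal adhesion gene zyxin, differed by 0.80 ± 0.14 log2, IRF1, an interferon-induced transcription factor gene, by 0.77 ± 0.14 log2, and HELZ2, a nuclear receptor coactivator gene, by 0.72 ± 0.12 log2. MFGE8, CENPB, RNF220, GRIN1, P2RY11, CYFIP2 and PSEN2 completed the higher set, with differences of 0.60 to 0.76 log2. Of these 15 genes, PLD3, GRIN1, ZYX, CYFIP2 and PSEN2 had other tested probes, and for none of the 5 did another probe reach an unadjusted p under 0.05. Each of the 5 had another probe with the opposite sign, at -0.01 log2 for PLD3, -0.20 for ZYX, -0.21 for CYFIP2 and -0.06 for PSEN2, and for GRIN1 on a probe not detected in p53+/+ cells.

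On the lower side, ZNF654, a zinc finger gene, was at 6.24 and 5.99 in p53-/- and 5.32 and 5.05 in p53+/+ cells, a difference of -0.92 ± 0.14 log2. Its other 3 probes differed by -0.19, -0.75 and -0.62 log2, all in the same direction, and on the untreated arrays all 4 had the other sign, at 0.52 to 0.76 log2. BIRC2, which encodes the inhibitor of apoptosis cIAP1, was at 10.24 and 10.18 against 9.51 and 9.51, a difference of -0.70 ± 0.11 log2. DUSP6, the phosphatase that feeds back on ERK signalling, was at 9.76 and 9.49 against 8.92 and 8.83, a difference of -0.75 ± 0.13 log2, while its second probe differed by -0.08 log2. VHL, the ubiquitin ligase subunit that targets hypoxia-inducible factors, differed by -0.66 ± 0.11 log2 on 1 probe and by -0.26 and 0.06 log2 on the other two. PM20D2, YEATS4, TBC1D4, DIPK2A, CIPC, GNPNAT1, RTL6, RO60, MTFR1, POGLUT3 and CDK18 completed the set, with differences of -0.89 to -0.49 log2. CDK18 was detected on only 1 of the 2 p53+/+ arrays, so that its level was at or near background in p53+/+ cells. RO60, which binds misfolded small RNAs, and CDK18 each had a second probe at an unadjusted p under 0.05 with the same sign, at -0.52 and -0.36 log2.

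**Figure D3:**
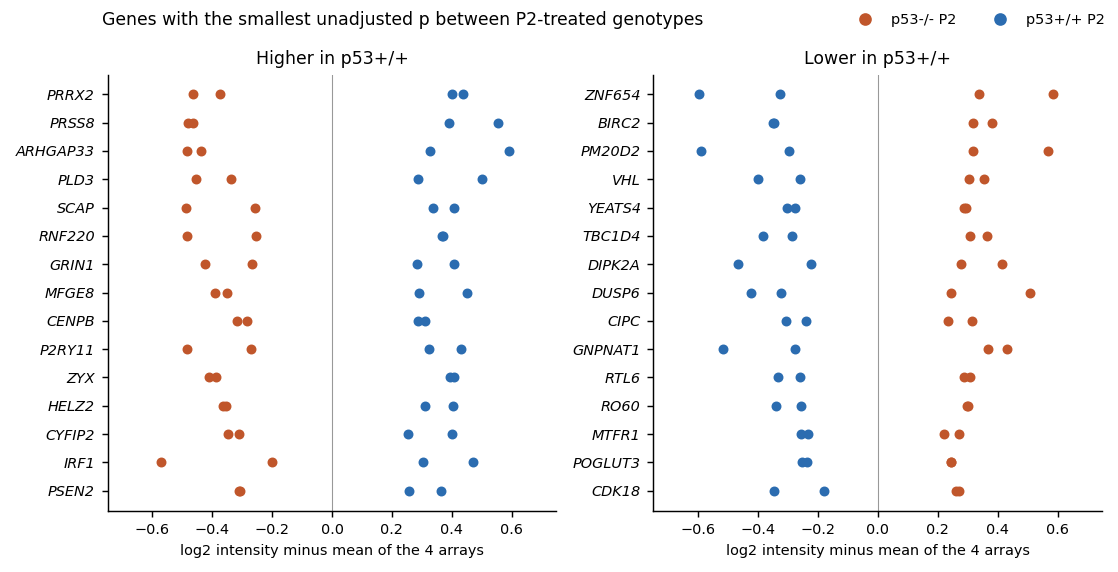
Levels on the 4 P2-treated arrays of the 15 genes with the smallest p in each direction, as log2 intensity minus the mean of the 4 arrays. Orange points are p53-/- arrays and blue points p53+/+ arrays, and the 2 groups are separate in all 30 genes because the choice of genes required it. None of the genes passed the adjusted test.

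Whether any of these genes passed depended on the variance model and on the background correction. When limma's moderation followed the mean intensity and was robust to outlying variances, 58 probes had an adjusted p under 0.05, 37 higher and 21 lower in p53+/+ cells. They included 24 of the 30 genes above, PRRX2, PRSS8, BIRC2 and DUSP6 among them, with a smallest adjusted p of 0.0214. A single p53 target probe was among the 58, that of CYFIP2 (adjusted p = 0.0414). Other genes called in this way, again named after their values were seen, were TUBB3, a neuronal beta-tubulin gene (0.64 log2), NDUFS8, a subunit gene of respiratory complex I (0.48 log2), CAVIN1, which builds caveolae (0.53 log2), the Notch ligand gene JAG2 (0.59 log2) and the splicing regulator gene MBNL1 (-0.59 log2). The authors' deposited log2 values, which have no background correction, gave 2 calls, PRRX2 and PRSS8, both with an adjusted p of 0.0499 in limma.

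Gene lists for other pathways were read against the shares of all tested probes, 7.38% higher and 6.87% lower at an unadjusted p under 0.05, with 0 probes past the adjusted threshold in every list. The largest share of higher probes was in the autophagy and lysosome list, with 7 of 30 probes (23.3%) higher and 0 lower and a median difference of 0.08 log2. The 7 were 3 probes of the lysosomal protease gene CTSL, 2 of the autophagy-initiating kinase gene ULK1, and 1 each of the autophagy receptor gene SQSTM1 and of ATG7, so that only 4 genes of 23 tested were involved. CTSL was at 9.57 and 9.68 in p53-/- and 9.93 and 10.05 in p53+/+ cells on its brighter probe with the smaller p, a difference of 0.36 ± 0.10 log2. Its other probes differed by 0.35 and 0.70 log2, and all 3 sets of arrays were separate. The ULK1 probes differed by 0.32 and 0.33 log2 under P2 and by -0.30 and -0.27 log2 without it. SQSTM1 differed by 0.27 log2 under P2 and by -0.28 log2 without it. The count was 2 of 30 under median scaling and 2 or 3 when any one treated array was left out.

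In the list of ATF4 targets, which are switched on in the integrated stress response, 5 of 28 probes (17.9%) were higher and 0 lower, with a median of 0.07 log2. SLC7A5, a leucine transporter gene, was at 10.84 and 11.08 in p53-/- and 11.34 and 11.48 in p53+/+ cells, a difference of 0.45 ± 0.13 log2. The others were CEBPB (0.30 log2), TRIB3 (0.32 log2), PCK2 (0.29 log2) and CTH (0.30 log2), the last 2 of amino acid and intermediary metabolism. This count was 3 under median scaling, ranged from 1 (without p53-/- P2 replicate 1) to 4 with 1 treated array left out, and was 2 without p53-/- P2 replicate 2 or p53+/+ P2 replicate 2. On the untreated arrays PCK2 and TRIB3 differed by 0.39 and 0.26 log2, and SLC7A5, CEBPB and CTH by 0.01, 0.08 and -0.05 log2. In the interferon list, 3 of 36 probes were higher and 0 lower under P2, those of IRF1, IFI6 and IFI27, a share of 8.33%.

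The mitosis and G2/M list leaned the other way under P2, with 8 of 60 probes (13.3%) lower and 3 higher and a median of -0.09 log2. On the untreated arrays 11 of these 60 probes were lower and 3 higher, against 1408 and 1396 of all 14024 tested probes. The excess of lower probes was thus not particular to treated cells. The untreated median of the list was -0.03 log2, against -0.04 log2 over all tested probes. Under P2, BUB1B, a spindle checkpoint kinase gene, differed by -0.42 ± 0.11 log2. CEP55, which acts in the final separation of daughter cells, was at 10.65 and 10.74 in p53-/- and 10.36 and 10.30 in p53+/+ cells, a difference of -0.37 ± 0.11 log2. NDC80, NUSAP1, TTK and KIF11 differed by -0.32 to -0.25 log2, whereas CDC20 and PLK1, both of mitotic progression, differed by 0.32 and 0.33 log2. The probes of NUF2, a kinetochore gene, disagreed, with 0.64 and -0.30 log2, and another probe, counted among the 8 lower, was detected on both p53-/- arrays and on neither p53+/+ array. Under median scaling only 1 probe of this list was lower and 2 were higher, and dropping 1 treated array gave a lower count between 3 (p53+/+ P2 replicate 1 dropped) and 6 (p53-/- P2 replicate 1 dropped), with 4 and 5 for the other array of each genotype, p53-/- first. Lists of DNA replication and E2F targets (2 of 51 higher, 3 lower), ribosomal proteins (1 of 56 higher), oxidative phosphorylation (1 of 43 higher) and heat shock genes (0 of 16) had no share above that of all tested probes. Median scaling divided the log2 values of each array by a factor, rather than shifting them, and so moved bright probes most. Under it, however, 20 of the 56 ribosomal protein probes were higher, with a median of 0.36 log2 against 0.03. The oxidative phosphorylation median was 0.15 against -0.02.

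**Figure D4:**
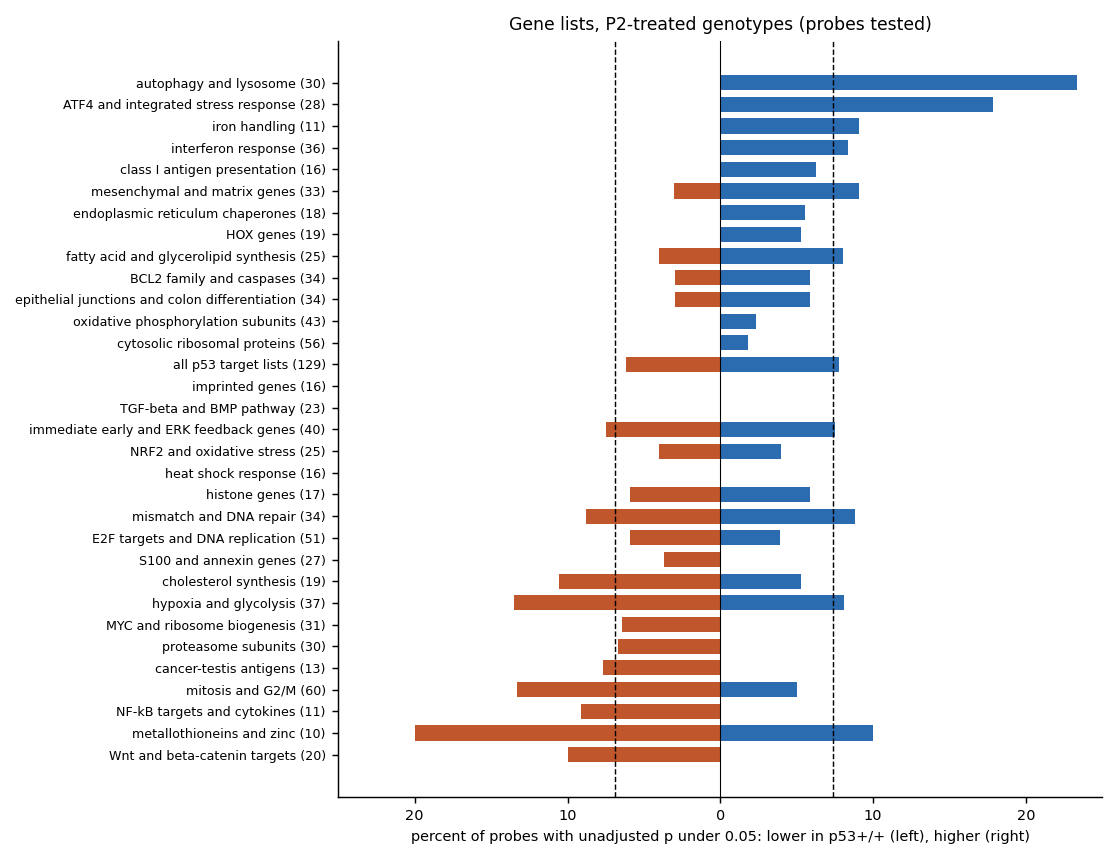
Percent of the tested probes of each gene list with an unadjusted p under 0.05 between the P2-treated genotypes, lower in p53+/+ to the left in orange and higher to the right in blue, with the number of probes in brackets. Dashed lines mark the shares among all tested probes, 6.87% lower and 7.38% higher. Lists with fewer than 10 tested probes are not drawn, the p53 lists are pooled, and no probe of any list passed the adjusted test.

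The list of immediate early and ERK feedback genes had 3 higher and 3 lower probes of 40, near the shares of all tested probes. DUSP6, ETV5 and SPRED1, which are induced by or restrain ERK signalling, differed by -0.75, -0.40 and -0.33 log2, and the immediate early genes ZFP36, JUN and FOSB by 0.41, 0.31 and 0.34 log2. The second probes of DUSP6 and ETV5 differed by only -0.08 and 0.03 log2. ZFP36 and FOSB had like differences on the untreated arrays, 0.43 and 0.42 log2. In the hypoxia and glycolysis list, VEGFA and SLC2A1 differed by 0.42 and 0.39 log2 and HK2, KDM3A, LDHA and P4HA1 by -0.42, -0.33, -0.30 and -0.26 log2, with 3 of 37 probes higher and 5 lower, which became 5 higher and 3 lower under median scaling. The lower count was 0 when p53-/- P2 replicate 1 was dropped, 1 when p53+/+ P2 replicate 1 was and 2 when p53+/+ P2 replicate 2 was. Probes of MXI1, a MYC antagonist gene of this list, disagreed, with 0.57 and -0.33 log2. PROM1, a stem cell surface marker gene, differed by -0.37 ± 0.10 log2 and SOX9 by -0.37 ± 0.14 log2.

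The genotype difference under P2 was set beside that in untreated cells, which used the 4 other arrays. Across the 14024 tested probes the differences in treated and untreated cells had r = -0.01 and rho = 0.05, given as a description since probes are not independent. At an unadjusted p under 0.05, 2804 probes (20.0%) differed between the untreated genotypes, or 1548 when p53-/- untreated replicate 1 was dropped, and 463 differed in both conditions. Of these 463, 58 were higher and 153 lower in p53+/+ cells in both conditions, while 141 were higher under P2 and lower without it and 111 the reverse. The same-sign probes were 10.6% of the probes past that level in treated cells and 7.52% of those in untreated cells. In untreated cells 5 probes (0.0357%) passed the adjusted test of limma, those of DFFA, H4C3 and USF1 higher and BCAM and RTL8A lower in p53+/+ cells. These calls depended on the settings, the count being 0 with the replicate block, cyclic loess, no filter or the untreated groups alone, and 1303 when p53-/- untreated replicate 2 was dropped. In treated cells DFFA, H4C3, a histone H4 gene, USF1 and RTL8A differed by -0.20, -0.41, -0.00 and 0.31 log2, so that USF1 was near 0 and the other 3 had the other sign. BCAM, a cell adhesion glycoprotein gene, was detected on both treated p53-/- arrays and on neither treated p53+/+ array. DFFA was detected on 2 of the 4 untreated arrays. Its untreated p53-/- values, 4.65 and 4.62, lay below the lowest detected levels of those arrays, 4.92 and 4.79.

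**Figure D5:**
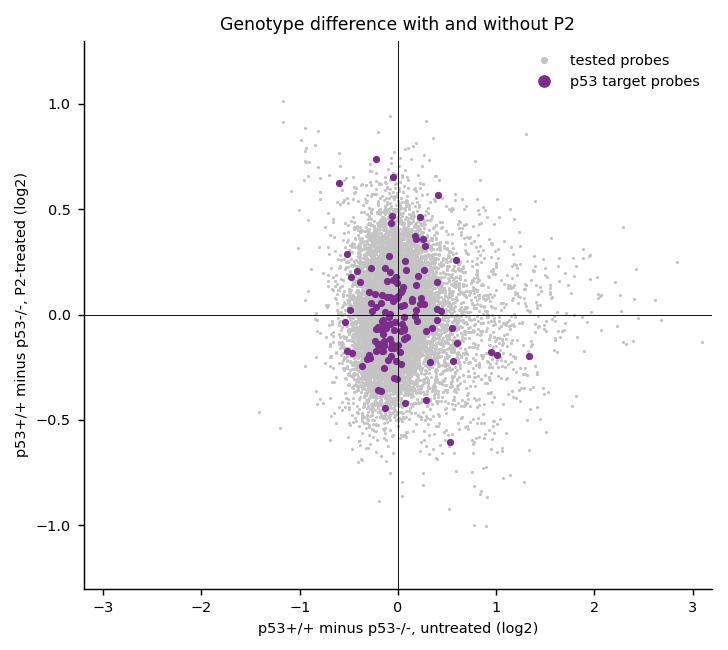
Difference between p53+/+ and p53-/- cells in log2 units, without P2 on the x axis and with P2 on the y axis, for 14024 tested probes in grey and 129 p53 target probes in purple. The axes have different scales. The p53 targets lie among the other probes, and r over all probes is -0.01.

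The untreated side of this comparison rests on an array that stood apart. On p53-/- untreated replicate 1, 215 tested probes were lower by at least 1 log2 unit than on replicate 2 and 0 were higher, whereas 3 probes were that far apart between the replicates of untreated p53+/+ cells, 0 in treated p53-/- and 10 in treated p53+/+ cells. The choice of these 215 probes used the treated arrays only through the detection filter that all tested probes passed. Their median genotype difference in treated cells was 0.08 log2. On the treated arrays the mean of these probes was 8.07 and 7.87 in p53-/- and 8.14 and 7.95 in p53+/+ cells. The fit shared 1 spread per probe over all 4 groups, so this array also entered the SE of the treated differences. The 215 probes were chosen for a wide replicate gap, which widened this SE, so few of them could reach a small p. At an unadjusted p under 0.05, 0 were higher and 1 was lower in treated p53+/+ cells. For that reason these counts cannot be set against the 7.38% and 6.87% of all tested probes. Without that array, 5 probes were called between the untreated genotypes and r between the differences was -0.08.

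Whether the genotype difference under P2 differed from that without it was tested as an interaction, in which 0 probes (0%) passed, with a smallest adjusted p of 0.0790 in limma and 2318 probes at an unadjusted p under 0.05. The 3 smallest p in each direction belonged to RTL8A, SYNGR1 and JAG2 and to LCOR, DFFA and H4C3. For DFFA the untreated p53-/- values were at background. SYNGR1, a synaptic vesicle protein gene, and JAG2 were higher in treated p53+/+ than treated p53-/- cells, by 0.55 and 0.59 log2, and the untreated differences were -0.51 and -0.57 log2. LCOR, a nuclear receptor corepressor gene, was at 8.09 and 7.60 in treated p53-/- and 7.18 and 6.93 in treated p53+/+ cells, a difference of -0.79 log2, against 1.28 log2 in untreated cells.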

How the data were processed

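RNA of 8 samples was labelled as biotin cRNA and hybridized to Illumina chips, per the labels' protocols. The deposited non-normalized table holds 1 intensity per probe and array and a detection p-value. A second table of log2 values, deposited by the authors, matched a quantile normalization of the log2 intensities (largest difference 5.0e-09). GenomeStudio is named in the submitters' processing notes, and its version and role are not given in the sources used here. Probe symbols came from the platform annotation, updated through RefSeq (21834 of 24526 probes with 1 symbol, 2692 with none). Background was corrected with normexp on detection p-values (offset 16, limma 3.58.1, R 4.3.3), followed by log2 and quantile normalization over 8 arrays. A linear model with a mean for each of the 4 groups used all 8 arrays (4 residual and 5.01 prior degrees of freedom), with two-sided moderated tests and Benjamini-Hochberg adjustment at 0.05 over 14024 probes. The steps were tested on simulated data. Plots used matplotlib 3.10.9 in Python 3.11.15.

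The genotypes were compared in treated cells, in untreated cells and as an interaction. Named were CDKN1A, MDM2, called genes with the largest differences and called list members, and for the interaction the 3 smallest p per direction. As no probe was called in treated cells, all other genes were chosen after their values were seen. The comparison and the gene lists were chosen with earlier results of these data known. Some genes are not analysed here. The number of arrays limits the precision. Alternatives are given in the closing section.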

Additional observations from a re-analysis of the deposited data

How the results depend on the processing

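In P2-treated cells the count of 0 called probes was also 0 under all alternatives but 3, including each array left out in turn (lowest 0, highest 0), the replicate block (0) and the 4 treated arrays normalized and fitted alone. It was 2 without background correction and the same 2 with the authors' deposited values, which are the same quantile-normalized values (adjusted p = 0.0499 for both probes in limma), and 58 when robust moderation followed a variance trend. The unadjusted count of 1998 was 1256 when p53-/- P2 replicate 1 was dropped, 1330 when p53+/+ P2 replicate 1 was, 1611 and 1390 when the other P2 array of either genotype was, and 2863 with no filter, and the brightest probe per gene gave 0 calls. For 33 named probes, 1 of 688 values changed sign, that of the dimmer CDKN1A probe, which ran from -0.085 (without p53+/+ P2 replicate 1) to 0.45 log2 with 1 array left out. The median of the p53 targets lay between -0.03 and -0.01 log2.

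In untreated cells the 5 calls were 310 without background correction, 310 with the authors' values, 12 with offset 50, 696 with median scaling, 8 with the stricter filter, 224 with the variance trend, and 0 with cyclic loess, no filter, the untreated groups alone, the replicate block or a minimum change of 1.5-fold. With 1 array left out they ranged from 0 (without either p53+/+ untreated or either p53-/- P2 array) to 1303 (without p53-/- untreated replicate 2), with 56 without either p53+/+ P2 array. For the interaction the 0 calls were 37 without background correction, 37 with the authors' values, 283 with median scaling and 178 with the variance trend, and from 0 to 983 with 1 array left out (983 with p53-/- untreated replicate 2 dropped, 80 with p53+/+ P2 replicate 1 dropped). The cause was not tested. Median scaling moved the median of all probes in untreated cells to -0.12 log2, against -0.04. Correlations between differences lay between -0.14 and 0.12 with 1 array left out. Same-numbered arrays did not deviate together in all groups (r from -0.19 to 0.20), so that the numbers were not taken as pairs. The r was -0.19, -0.15 and -0.18 where the untreated p53-/- group was involved. It was 0.10 and 0.18 between untreated p53+/+ and the treated groups and 0.20 between the treated groups. With 2 arrays per group, no difference of any size passed the adjusted test in treated cells, up to 1.01 log2 for TRIM16L, and the median half-width of 0.29 log2 belongs to the unadjusted 95% interval. The 4-array normalization gives no value for untreated cells.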

Other observations

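Values for genes with several probes bear on how far a single probe can be read. Of 1685 genes with over 1 tested probe, 47 had at least 2 probes at an unadjusted p under 0.05 in the same direction between the treated genotypes, 31 higher and 16 lower in p53+/+ cells, and 18 had such probes in opposite directions. TIAL1, an RNA-binding protein gene of stress granules, had 3 probes lower in p53+/+ cells, with differences of -0.53, -0.55 and -0.52 log2. FXYD5, which encodes dysadherin, had 3 probes with 0.47, 0.32 and 0.19 log2, the last with an unadjusted p of 0.374. ATRIP, the partner of the ATR checkpoint kinase, had 2 probes with 0.36 and 0.40 log2. PPFIBP1, a liprin gene, had probes with 0.78 and -0.81 log2 in treated cells and -0.95 and 0.77 log2 in untreated cells, so that both probes had the opposite sign without P2. These genes were chosen after their values were seen.

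The share of probes at an unadjusted p under 0.05 varied with the chromosome. Over all tested probes 7.38% were higher and 6.87% lower. On chromosomes 16, 19 and 22, 11.8%, 12.3% and 12.5% of tested probes were higher in treated p53+/+ cells and 4.67%, 4.22% and 4.18% lower. On chromosomes 4 and 18, 9.73% and 12.9% were lower and 4.52% and 3.93% higher, and on chromosome 13, 24 of 218 probes were lower and 8 higher. The median differences were 0.04, 0.05 and 0.04 log2 on the first 3 and -0.06, -0.04 and -0.06 log2 on chromosomes 4, 18 and 13. Between the untreated genotypes the medians of these 6 chromosomes lay from -0.10 to -0.00 log2. These chromosomes were picked after their values were seen.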
